A study of Macaca mulatta with 26 samples.

Results

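The 8 genes described here are MBP, MOBP, MOG, MAG, CNP, CLDN11, UGT8 and ERMN, which encode proteins of oligodendrocytes and of the myelin they wrap around axons. They were chosen by name, as 8 of the 50308 rows of the deposited gene table, and all 8 were found. RNA sequencing was done on pineal glands and retinas of adult rhesus macaques (Macaca mulatta) kept under 12 h of light and 12 h of darkness, with lights on at 6 h. Per the labels the 12 animals, male and female and 3 to 33 years of age, were collected over 11 years, 3 at each of 4 times, which are dawn (5 to 7 h), mid-day (11 to 13 h), dusk (17 to 19 h) and midnight (23 to 1 h). Each tissue and time thus had 3 libraries, 12 of the pineal gland and 12 of the retina. No genotype or treatment differed between them, and all animals were anesthetized with ketamine before death. There were also 2 control pools, 1 from mid-day and 1 from midnight, each of equal amounts of RNA from 16 tissues, which were 7 parts of the brain (caudate, medulla, thalamus, cerebellum, hippocampus, corpus callosum and frontal cortex), the pituitary, both gonads (ovary and testis), skeletal muscle, heart, small intestine, kidney, liver and lung. RNA of a pineal library came from an individual gland and that of a retina library from a small piece of tissue, and the labels do not say which retina and pineal libraries share an animal.

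Oligodendrocytes form the myelin of the central nervous system, whereas Schwann cells form that of peripheral nerves. Compact myelin is held together at its cytoplasmic faces by MBP, and MOBP is another small basic protein of the same compartment. MOG lies on the outer surface of the sheath and MAG on the membrane next to the axon. CNP belongs to the non-compact myelin, CLDN11 forms the tight junctions between the layers of the myelin sheath, UGT8 makes galactosylceramide, a main myelin lipid, and ERMN is a cytoskeletal protein of late oligodendrocytes. Outside myelin, CLDN11 is also known from the tight junctions of Sertoli cells in the testis. The pineal gland consists mainly of pinealocytes with interstitial astrocytes and is attached to the brain by a stalk beside myelinated commissures. In the primate retina the axons of ganglion cells normally lack myelin until they have left the eye.

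Values are the deposited FPKM, fragments counted per kilobase of gene model and scaled to the counted reads of the library. Macaque reads were set against human gene models (hg19), so the level of a gene also depends on how well its macaque reads align there. Recovered totals were 11675407 to 16132599 reads in the pineal libraries, 16933879 to 21429774 in the retina libraries and 16181945 and 22967318 in the control pools. In the retina libraries dawn 2 and mid-day 1 a larger share of genes had no read, 44.8% and 45.7%, than in the other 10, where it was 33.5% to 35.2%. Tests run here that use the retina were repeated without them, as were the gene-by-gene correlations in the retina. The search for the genes most like the members in the retina was not. Markers of the 2 tissues were looked up, with calls from the limma fit described below. Of 7 pineal markers 4 were called higher and 2 lower in the pineal gland than in the retina. Of 8 retina markers 0 were called higher and 8 lower. The shares of all tested genes were 34.9% higher and 47.6% lower. TPH1, the first enzyme of serotonin synthesis in the pineal gland, was at 431 to 817 FPKM in the pineal libraries and at 7.71 to 23.3 in the retina libraries, while GNAT1, the transducin subunit of rods, was at 5.22 to 18.8 and 753 to 1097. The libraries of a group differed from each other beyond counting error in all 24 pairs. The p-values below set a difference or a correlation against the spread between these libraries. Comparisons between the tissues treat all libraries as independent, because the labels do not say which of them share an animal.

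In the pineal gland all 8 genes were detected in every library, but their levels differed widely between the glands. MBP was at 7.10, 81.7 and 24.5 FPKM in the 3 dawn libraries, 2.97, 32.7 and 9.36 at mid-day, 16.2, 28.6 and 15.3 at dusk and 11.2, 12.8 and 7.44 at midnight. The second dawn library was the highest and the first mid-day library the lowest, 27.5-fold apart. Without these 2 libraries the remaining 10 still spanned 4.60-fold.

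MOBP, the other basic protein, followed the same order at its ends. It was at 1.24, 43.7 and 9.27 FPKM at dawn, 0.195, 11.5 and 2.19 at mid-day, 4.23, 12.3 and 5.33 at dusk and 1.69, 3.04 and 1.25 at midnight. The highest library exceeded the lowest 223-fold, and 9.86-fold among the 10 libraries left without dawn 2 and mid-day 1.

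The surface and axonal glycoproteins had the same extremes. MOG was at 0.755, 16.6 and 5.40 FPKM at dawn, 0.0846, 5.72 and 0.928 at mid-day, 1.91, 4.19 and 2.26 at dusk and 0.660, 2.56 and 0.678 at midnight. Its lowest value rests on 2 reads and its highest on 395, a ratio of 196 with an exact 95% interval of 53.9 to 1624 for counting error. MAG was at 2.11, 27.2 and 12.1 FPKM at dawn, 1.23, 8.87 and 2.58 at mid-day, 4.89, 7.52 and 5.06 at dusk and 2.60, 4.89 and 1.31 at midnight, a 22.1-fold range. Dawn 2 was the highest and mid-day 1 the lowest for both.

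Of the genes that serve myelin formation and the cell body, ERMN, the cytoskeletal protein, was at 4.37, 52.6 and 15.9 FPKM at dawn, 3.28, 31.3 and 7.86 at mid-day, 14.3, 19.1 and 10.5 at dusk and 6.61, 11.3 and 4.95 at midnight. UGT8, the galactosylceramide synthase, was at 1.73, 17.5 and 6.53 FPKM at dawn, 1.16, 6.72 and 1.79 at mid-day, 2.95, 6.68 and 3.35 at dusk and 2.18, 2.65 and 1.12 at midnight. Both were highest in dawn 2, with ranges of 16-fold for ERMN and 15.6-fold for UGT8, and the lowest library was mid-day 1 for ERMN and midnight 3 for UGT8. CNP, the phosphodiesterase of non-compact myelin, was at 8.60, 33.6 and 15.4 FPKM at dawn, 5.89, 14.8 and 8.63 at mid-day, 9.64, 13.7 and 12.2 at dusk and 9.42, 9.72 and 6.20 at midnight. Its 5.71-fold range fell to 2.62-fold without dawn 2.

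CLDN11, the tight-junction protein, differed from the other members. It was at 8.18, 9.60 and 5.13 FPKM at dawn, 15.9, 8.42 and 10.3 at mid-day, 12.6, 12.9 and 7.91 at dusk and 12.9, 8.97 and 12.8 at midnight. Mid-day 1, the lowest library for 6 of the other genes, was the highest for CLDN11, and the range was 3.10-fold. The spread of each gene around its time means was set beside that of the 19110 genes tested in the pineal gland, as the residual standard deviation of log2(FPKM + 0.5). It was 1.22 for MBP, 1.62 for MOBP, 1.37 for MOG, 1.15 for MAG, 1.01 for UGT8 and 1.21 for ERMN, against a median of 0.26 over all tested genes. These 6 lay between the 96.6th and the 99.7th percentile, CNP with 0.61 at the 85.8th and CLDN11 with 0.39 at the 69.3rd.

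**Figure D1:**
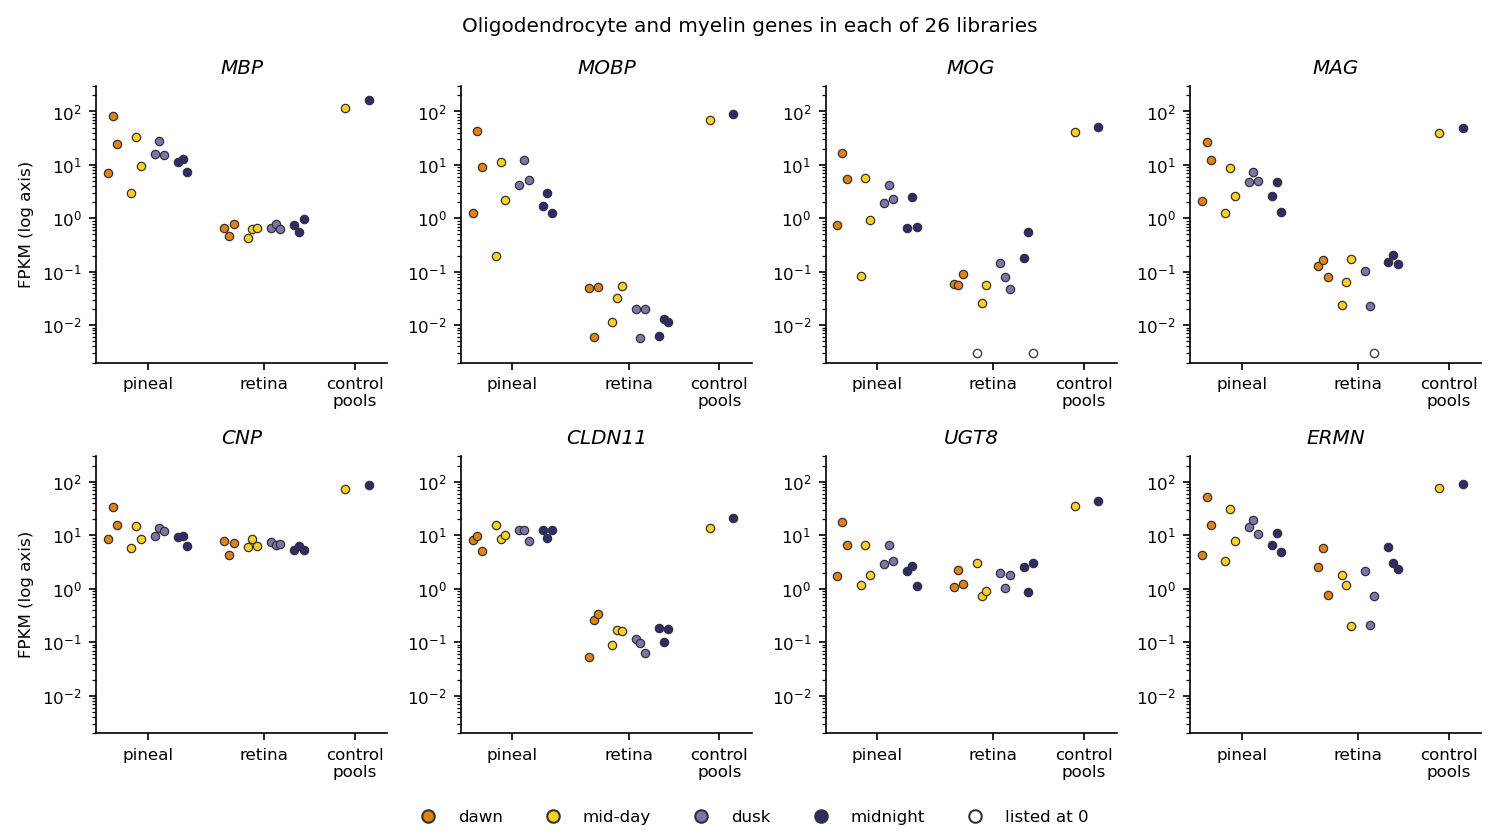
FPKM (log axis) of each gene in each of the 26 libraries, with 1 point per library coloured by time of day and open points for libraries listed at 0. In the pineal gland MBP runs from 2.97 to 81.7 FPKM while CLDN11 runs from 5.13 to 15.9.

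FPKM is per kilobase of gene model, but an order between genes also depends on the models and on how well macaque reads align to them. As deposited, the median pineal levels ran from MBP at 14.0 FPKM through ERMN at 10.9, CLDN11 at 9.95, CNP at 9.68, MAG at 4.89, MOBP at 3.64 and UGT8 at 2.80 to MOG at 2.08. MBP exceeded ERMN in 11 of 12 libraries, CNP exceeded MAG in 12 and UGT8 exceeded MOG in 12. Neighbours elsewhere in that order changed places between libraries: ERMN exceeded CLDN11 in 7 of 12, CLDN11 exceeded CNP in 5, MAG exceeded MOBP in 8 and MOBP exceeded UGT8 in 9.

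The other 7 genes varied together from one pineal library to the next. Over the 12 pineal libraries the 21 pairs among MBP, MOBP, MOG, MAG, CNP, UGT8 and ERMN had Pearson correlations of log2(FPKM + 0.5) between 0.917, for CNP with ERMN, and 0.991, for MBP with MOBP. For MBP with MOBP Spearman's rho was 0.979, and each had a permutation p of 1e-05, the smallest that 100000 permutations can give, and Benjamini-Hochberg adjusted values over the 28 pairs of 1.4e-05 and 2.8e-05. For CNP with ERMN Spearman's rho was 0.937, the permutation p was 2e-05 for Pearson's r and 3e-05 for Spearman's rho, and the adjusted values were 2.67e-05 and 4.67e-05. Leaving out the 2 libraries farthest from the median gave r = 0.979 for MBP with MOBP and 0.838 for CNP with ERMN, and deviations from the mean of each time gave 0.993 and 0.948. All 21 pairs had an adjusted p under 0.05 in each of these settings and with each library left out.

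CLDN11 stood apart. Its 7 correlations with the other members ran from -0.517, with MAG (Spearman's rho -0.483, permutation p = 0.0846 and 0.115, adjusted p = 0.104 and 0.134), to -0.354, with ERMN (Spearman's rho -0.287, permutation p = 0.26 and 0.367, adjusted p = 0.26 and 0.367). None of the 7 had an adjusted p under 0.05. Without dawn 2 the values for MOG, MAG and CNP were -0.63, -0.64 and -0.65, with permutation p adjusted to 0.0445, 0.0427 and 0.0372.

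**Figure D2:**
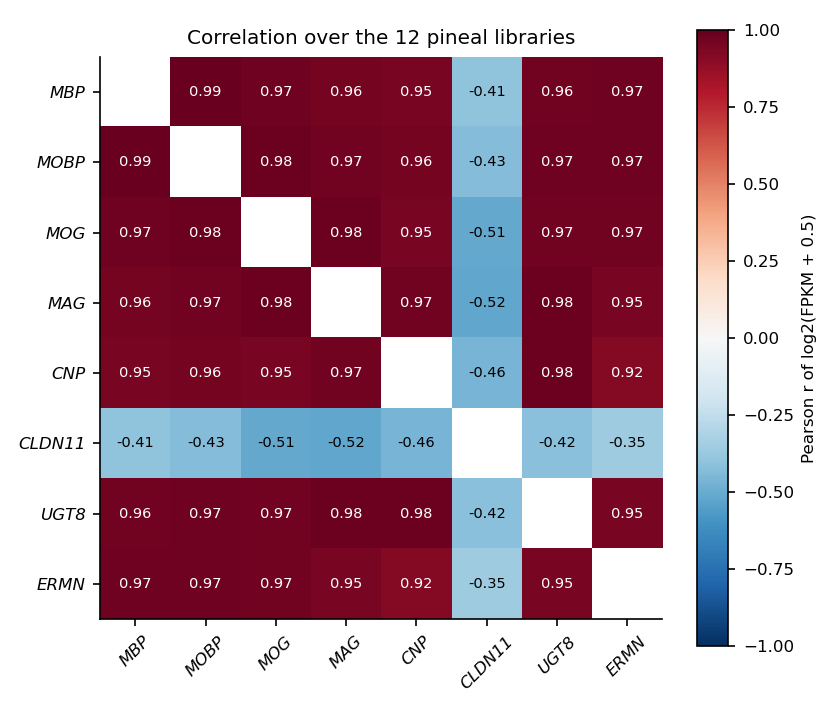
Pearson correlation of log2(FPKM + 0.5) between each pair of genes over the 12 pineal libraries, with the value in each cell. The 21 pairs without CLDN11 lie between 0.917 and 0.991 and the 7 pairs with CLDN11 between -0.517 and -0.354.

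The level of the pineal libraries can be read against the control pools, in which corpus callosum and medulla are among the tissues. MBP was at 114 FPKM in the mid-day pool and 166 in the midnight pool, MOBP at 68.3 and 88.6, MOG at 40.7 and 52.0 and MAG at 39.7 and 48.4. The pools held CNP at 75.2 and 86.0 FPKM, CLDN11 at 13.9 and 21.0, UGT8 at 35.3 and 45.0 and ERMN at 77.6 and 91.4. Summed over the 8 genes, the pools were at 465 and 598 FPKM and the pineal libraries between 30.7, in mid-day 1, and 282, in dawn 2. Pineal dawn 2 reached 58.3% of the mean of the pools for MBP, 55.6% for MOBP, 35.8% for MOG, 61.8% for MAG, 41.7% for CNP, 54.9% for CLDN11, 43.5% for UGT8 and 62.2% for ERMN. In mid-day 1 the same shares were 2.12% for MBP, 0.249% for MOBP, 0.183% for MOG, 2.80% for MAG, 7.31% for CNP, 2.89% for UGT8 and 3.89% for ERMN, but 91.1% for CLDN11. The library with the least of the other myelin genes thus had the CLDN11 level nearest to the pools.

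**Figure D3:**
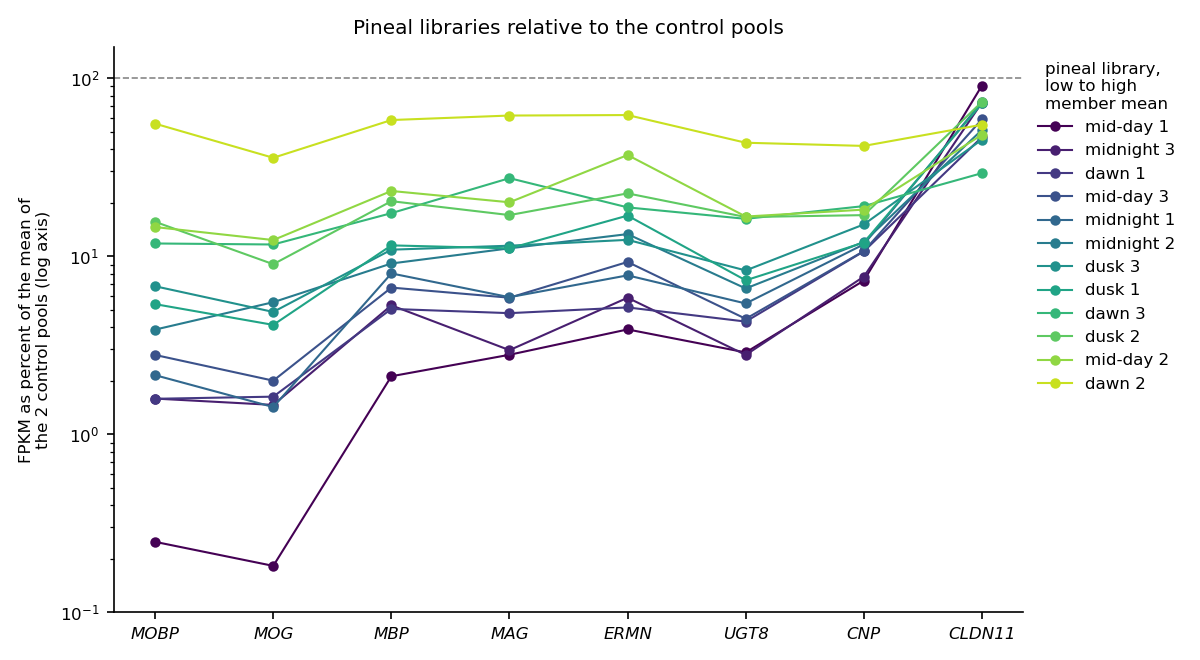
FPKM of each gene in each pineal library as a percent of the mean of the 2 control pools (log axis), with 1 line per library ordered from low to high mean of the 8 genes and a dashed line at 100%. The lines keep nearly the same order from MOBP to CNP, with dawn 2 on top and mid-day 1 at or next to the bottom, and cross at CLDN11.

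All 8 genes were lower in the pineal gland than in the control pools. With limma on log2(FPKM + 0.5), fitted to all 26 libraries and 25213 genes and adjusted by the Benjamini-Hochberg method, 24.4% of all tested genes were called lower, at an adjusted p under 0.05, and 8 of 8 members were. The change on this log2 scale was -3.17 ± 0.61 (standard error) for MBP (adjusted p = 0.000215), -4.10 ± 0.80 for MOBP, -4.17 ± 0.69 for MOG and -3.11 ± 0.57 for MAG. It was -2.81 ± 0.33 for CNP, -3.40 ± 0.58 for UGT8 and -2.86 ± 0.74 for ERMN (limma adjusted p = 0.00331). The median over the 8 members was -3.14, and over all tested genes 0.00. CLDN11 had the smallest change, -0.74 ± 0.24 (limma adjusted p = 0.0145), and it was no longer called with a pseudocount of 0.1 (adjusted p = 0.0674) or without the midnight pool, where the change was -0.45 (limma adjusted p = 0.322). For MBP, MOBP, MOG, MAG, CNP, UGT8 and ERMN every pineal library lay below both pools, and for CLDN11 the highest pineal library, at 15.9 FPKM, lay above the mid-day pool. Each pool is a single library, so their own spread is known from 2 values, and in bulk tissue fewer cells of a type and less RNA per cell cannot be told apart.

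Time of day was set against this spread. Of the 19110 genes tested in the pineal gland 0.105% were called by the limma F test over the 4 times, and of the 8 members 0 were, with adjusted p between 0.533 for CLDN11 and 0.804 for ERMN. No member had an unadjusted F-test p under 0.05, and limma-voom on recovered reads also called 0 of 8. For the 7 members other than CLDN11 dawn had both the highest mean and the widest spread, with MBP at 37.8 ± 39.0 FPKM (SD, n = 3) and MOBP at 18.1 ± 22.5, against 10.5 ± 2.75 and 1.99 ± 0.94 at midnight. CLDN11 had its lowest mean at dawn, 7.63 ± 2.28 FPKM, and its highest mean and widest spread at mid-day, 11.5 ± 3.90. In the 6 pairwise comparisons of times 0.628% of genes were called by limma in at least 1, and 0 of 8 members were; the lowest unadjusted p was 0.0535, for CNP in dawn against midnight (log2 change 0.96 ± 0.44, adjusted p = 0.534). Without pineal mid-day 3 the share of genes called rose, from 20 genes to 378, and the number of members stayed at 0.

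The comparison of midnight with dusk was the only one in which groups of pineal libraries separated for any member. All 3 midnight libraries lay below all 3 dusk libraries for MBP (7.44 to 12.8 against 15.3 to 28.6 FPKM), MOBP (1.25 to 3.04 against 4.23 to 12.3) and UGT8 (1.12 to 2.65 against 2.95 to 6.68). The same was true of 14.0% of all tested genes. By limma none of the 3 was called: the log2 change was -0.88 ± 0.87 for MBP (adjusted p = 0.728), -1.57 ± 1.16 for MOBP (adjusted p = 0.619) and -0.93 ± 0.73 for UGT8 (adjusted p = 0.643). For UGT8 it was -0.60 without dusk 2. The authors' deposited table for night against dusk, made with DESeq2 per the submitters' processing notes, calls 2.15% of genes lower and among them MBP, at a log2 fold change of -0.73 (adjusted p = 0.0367), and MOBP, at -1.22 (adjusted p = 0.00117). In the same authors' deposited table UGT8 stands at -0.74 with an adjusted p of 0.124. In at least 1 of the other 5 pineal comparisons of times the authors' deposited tables call 7.77% of genes, and 0 of 8 members.

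Other genes of mature oligodendrocytes moved with the members across the pineal libraries. A list of 25 such genes was used, of which 21 passed the filter (at least 1 FPKM in 3 or more libraries), and the mean of its tested genes correlated with the mean of the 8 members at r = 0.986 (Spearman's rho 0.965), or 0.976 without dawn 2 and mid-day 1. Of the 21 genes 16 had r of at least 0.8 with the member mean, against 0.874% of all 19102 other tested genes. HAPLN2, a matrix link protein found at nodes of Ranvier, was at 0.550, 11.9 and 3.07 FPKM at dawn, 0.0366, 4.21 and 0.482 at mid-day, 1.54, 4.15 and 1.42 at dusk and 0.739, 1.19 and 0.404 at midnight (r = 0.994). Its highest and lowest libraries, dawn 2 and mid-day 1, were those of MBP. Lower values in the same list were those of 3 genes: ENPP2, an enzyme that makes lysophosphatidic acid, had r = 0.154, the tetraspanin TSPAN2 0.159 and the lysophosphatidic acid receptor LPAR1 0.484. QDPR, a biopterin-recycling enzyme at 22.3 ± 4.73 FPKM (SD, n = 12), and the iron carrier TF, at 14.6 ± 4.54, were among the more abundant genes of the list, with r = 0.755 and 0.735.

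By the rule of highest correlation with the member mean, the most similar non-member genes with a mean of at least 2 FPKM included HAPLN2, PTPRD (0.979), STMN4 (0.978), OPALIN (0.976), B4GALNT4 (0.951), TPPP (0.943), PAQR6 (0.938), PPP1R16B (0.933) and ASPA (0.924). OPALIN is a membrane protein of oligodendrocytes, TPPP a tubulin-binding protein and ASPA the enzyme that breaks down N-acetylaspartate. These 9 were highest in pineal dawn 2, and 40 of 19102 genes, or 0.209%, had r of at least 0.9. OPALIN ran from 0.0668 FPKM in mid-day 1 to 14.8 in dawn 2.

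Transcription factors of the lineage ranged from close to no relation. The mean of the 7 tested factors correlated with the member mean at r = 0.876, or 0.948 without dawn 2 and mid-day 1. With 1 library left out it ran from 0.773 to 0.972. MYRF, the regulator of myelin genes, had r = 0.956 and ran from 0.246 FPKM to 5.13 in dawn 2. SOX8 (r = 0.863), SOX10 (0.707) and OLIG1 (0.689) were highest in dawn 2, where SOX10, which all oligodendroglia and Schwann cells require, reached 18.7 FPKM against 5.0 in midnight 3. ST18, at 11.2 ± 2.20 FPKM (SD, n = 12), had r = 0.116. The 7 tested genes of oligodendrocyte precursors gave r = 0.415 for their mean, or 0.613 without dawn 2 and mid-day 1. Among them PTPRZ1 was at 0.703, TNR at 0.454, PCDH15 at -0.037 and VCAN at -0.070. Limma called 0 genes of these 3 lists over time of day in the pineal gland.

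Markers of other cell types were set beside the members in the same libraries, and their part in the spread was not tested. The list of 10 astrocyte genes, all 10 tested, summed to 317 to 900.3 FPKM across the pineal libraries, with r = 0.748 to the member mean and 0.753 without the 2 extreme libraries. GFAP, the astrocyte filament protein, was at 146 to 386 FPKM in the pineal libraries, at 232 and 187 in the pools, and at 386 in dawn 2 and 270 in mid-day 1. S100B (r = 0.674), the water channel AQP4 (0.655) and the gap-junction protein GJA1 (0.720) varied less than 5-fold. The 8 tested genes of nodes and paranodes gave r = 0.858, which fell to 0.680 without dawn 2 and mid-day 1. The axonal contact protein CNTN1 was at 39.3 to 70.8 FPKM (r = 0.555).

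Neuronal genes gave a less steady relation. The 13 tested genes of central neurons, which summed with 2 further genes to 470.5 to 772 FPKM, gave r = 0.607 with the member mean, but 0.145 without dawn 2 and mid-day 1 and 0.852 as deviations from the time means. Their most abundant genes did not follow: SNAP25, of the synaptic release machinery, was at 151 to 279 FPKM with r = -0.341, SYT1 had -0.127, STMN2 0.121 and SLC12A5 -0.008. The 6 tested genes of retinal ganglion cells, a list that overlaps with the neuronal one, gave r = 0.703 and 0.356 without those 2 libraries. SNCG, a synuclein, had r = 0.829 and was highest in dawn 2, at 21.2 FPKM. THY1 had r = 0.777 and SLC17A6, a glutamate transporter, 0.666, whereas NEFL, a neurofilament, had 0.192.

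Schwann cell genes were present and as a list did not rise with the members. PMP2, a lipid-binding protein of peripheral myelin, was at 39.8, 21.4 and 22.9 FPKM at dawn, 22.8, 6.79 and 8.16 at mid-day, 24, 27.1 and 44.9 at dusk and 30.5, 26.1 and 20.5 at midnight, and at 19.1 and 32.8 in the control pools. Its lowest libraries were mid-day 2 and mid-day 3, and dawn 2 and mid-day 1 had nearly the same level. The 9 tested genes of that list summed, with 1 more, to 49.7 to 149 FPKM, and their mean had r = -0.196 to the member mean, or -0.519 without dawn 2 and mid-day 1. The value was -0.172 for PMP2, 0.30 for PMP22 (20.4 ± 5.31 FPKM, SD, n = 12) and -0.230 for GLDN (19.8 ± 11.2 FPKM), which also belong to peripheral myelin or its nodes.

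The remaining lists had correlations with the member mean of -0.167 to 0.406 in the pineal libraries. The value was -0.167 for 7 pineal markers, among them TPH1 with -0.097, 0.318 for 8 tested microglial genes and 0.179 for 7 of ependymal cells. For 10 genes of the choroid plexus, which borders the pineal gland and whose TTR was at 239 to 1090.5 FPKM, it was -0.085, or -0.420 without mid-day 1, and for 6 tested retina markers 0.406, or 0.709 as deviations from the time means and 0.170 without dawn 2 and mid-day 1. No listed gene was at 0 in every pineal library. Pineal dawn 2 and mid-day 1 were alike in depth, with 12282955 and 12191727 reads, and had 45.4% and 47.9% of genes at 0 in a pineal range of 43.1% to 47.9%.

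**Figure D4:**
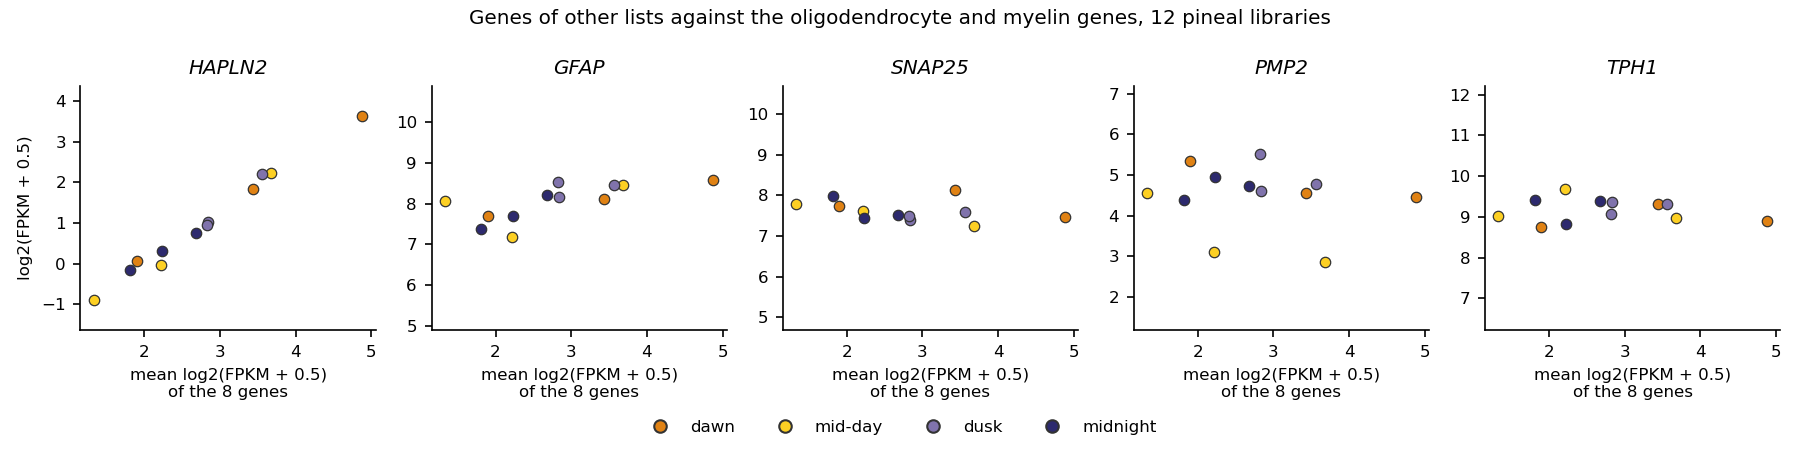
Log2(FPKM + 0.5) of HAPLN2, GFAP, SNAP25, PMP2 and TPH1 against the mean log2(FPKM + 0.5) of the 8 genes in the 12 pineal libraries, with points coloured by time of day and the same height of axis in each panel. HAPLN2 rises along a line (r = 0.994), GFAP less tightly (r = 0.694), and SNAP25, PMP2 and TPH1 have r of -0.341, -0.172 and -0.097.

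CLDN11 was most like another set of genes. Non-member genes with a mean of at least 2 FPKM, other than clones and numbered loci, were looked up after its values were seen. The 8 with the highest r were ENPP6 (r = 0.953), BNC2 (0.933), PTPRU (0.925), TJP1 (0.920), MPZL2 (0.914), GJB2 (0.906), FHL2 (0.905) and ITGA8 (0.905). Before these limits, 11 of 19102 genes had r of at least 0.9 with CLDN11. Of these TJP1 encodes a scaffold of tight junctions, at 26.8 to 46.2 FPKM, and GJB2 a gap-junction protein, at 1.26 to 19 FPKM. All 8 were lowest in dawn 3, as was CLDN11 itself.

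In the retina 4 of the genes had few reads, and MBP had more but stayed under 1 FPKM. MOBP had 1 to 9 reads per library and at most 0.0535 FPKM. MOG had 0 to 18 reads, with 0 in mid-day 1 and midnight 3 and the 18 in midnight 2 (0.547 FPKM), and MAG had 0 to 8 reads, with 0 in dusk 3. CLDN11 had 6 to 38 reads, 0.0536 to 0.343 FPKM. MBP was the most abundant of these 5, at 0.648, 0.469 and 0.795 FPKM at dawn, 0.429, 0.626 and 0.653 at mid-day, 0.659, 0.795 and 0.628 at dusk and 0.758, 0.555 and 0.966 at midnight. It thus varied 2.25-fold over 12 retinas, on 147 to 339 reads. None of the 5 reached 1 FPKM in any retina library, so only CNP, UGT8 and ERMN passed the filter there.

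CNP was at 7.72, 4.26 and 7.24 FPKM at dawn, 6.05, 8.42 and 6.45 at mid-day, 7.58, 6.64 and 7.0 at dusk and 5.36, 6.36 and 5.26 at midnight. Its retina range of 1.98-fold overlaps with the pineal one, whose lowest library had 5.89 FPKM. UGT8 was at 1.10, 2.21 and 1.25 FPKM at dawn, 3.06, 0.747 and 0.923 at mid-day, 1.94, 1.02 and 1.84 at dusk and 2.52, 0.877 and 2.98 at midnight. ERMN had the widest range, 28.9-fold, from 0.206 FPKM (16 reads) in mid-day 3 to 5.95 FPKM (442 reads) in midnight 1. It was at 2.53, 5.69 and 0.774 FPKM at dawn, 1.84, 1.20 and 0.206 at mid-day, 2.20, 0.209 and 0.732 at dusk and 5.95, 3.05 and 2.36 at midnight. In the retina CNP was thus the highest of the 8, above ERMN in 10 of 12 libraries, ERMN and UGT8 each led in 6 of 12, and UGT8 exceeded MBP in all 12.

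Time of day gave no call among the 3 retinal genes. By the limma F test 0 of 21890 genes (0.00%) were called in the retina, with 2234 at an unadjusted p under 0.05, and limma-voom on recovered reads also called 0. The adjusted limma p was 0.628 for ERMN, 0.945 for UGT8 and 0.859 for CNP, and 0.399, 0.569 and 0.378 without dawn 2 and mid-day 1. The 6 pairwise limma comparisons called 0.0274% of genes in at least 1, and 0 of the 3. Midnight and dusk libraries did not overlap for ERMN, which was higher at midnight, nor for CNP, which was lower, and the same lack of overlap in either direction held for 21.7% of tested genes. For ERMN all 3 midnight libraries also exceeded all mid-day libraries, as for 8.12% of tested genes. The log2 change of ERMN from dusk to midnight was 1.60 ± 0.69 (limma unadjusted p = 0.0448, adjusted p = 0.443), and 1.14 without dusk 2 (adjusted p = 0.782). Without dawn 2 and mid-day 1 the log2 change of CNP from dusk to midnight was -0.30 ± 0.12 (limma unadjusted p = 0.0333, adjusted p = 0.299). The authors' deposited tables call 5.82% of genes in at least 1 of the 6 retina comparisons of times, and 0 of the 4 members that have an adjusted p there. The lowest there was ERMN in night against day, at a log2 fold change of 0.45 and an adjusted p of 0.19 in the authors' deposited table. Limma gave 1.51 ± 0.69 for the same comparison. For MBP in pineal mid-day against dawn the authors' value was -0.36 and that of limma -1.26. Fold changes between times from these 2 sources are thus not the same measure.

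ERMN varied in the retina with genes of another tissue layer. Among genes with a mean of at least 2 FPKM, other than clones and numbered loci, 4 non-member genes were most like the mean of CNP, UGT8 and ERMN. Over the 12 retina libraries they were LRAT (r = 0.967), TTR (0.942), RPE65 (0.939) and SLC39A12 (0.906). LRAT and RPE65 are enzymes of the visual cycle in the retinal pigment epithelium, which also makes the retinoid and thyroxine carrier TTR. Their part in the variation of ERMN was not tested. RPE65 was at 23.6, 61.6 and 6.56 FPKM at dawn, 28.4, 21.0 and 2.96 at mid-day, 23.5, 1.73 and 7.24 at dusk and 63.2, 30.6 and 27.6 at midnight. Its 2 highest libraries, midnight 1 and dawn 2, were the highest for ERMN, and its 2 lowest, dusk 2 and mid-day 3, were the lowest for ERMN.

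Gene by gene, a choice made after the values were seen and so given without a test, ERMN had r = 0.966 with RPE65 (Spearman's rho 0.937), 0.946 without dusk 2 and mid-day 3, 0.969 without dawn 2 and mid-day 1, and 0.980 as deviations from the time means. The correlation of UGT8 with RPE65 was 0.508 and those of CNP and MBP were -0.427 and -0.322. Without dawn 2 and mid-day 1 these 3 were 0.429, -0.212 and -0.065. UGT8 instead had r = 0.899 with the neurofilament gene NEFL of ganglion cells (Spearman's rho 0.909), 0.853 without mid-day 1 and midnight 3 and 0.860 without dawn 2 and mid-day 1. Among the members themselves, ERMN with UGT8 had r = 0.50, ERMN with CNP -0.523 and UGT8 with CNP -0.617. Without dawn 2 and mid-day 1 the values were 0.480, -0.323 and -0.630.

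**Figure D5:**
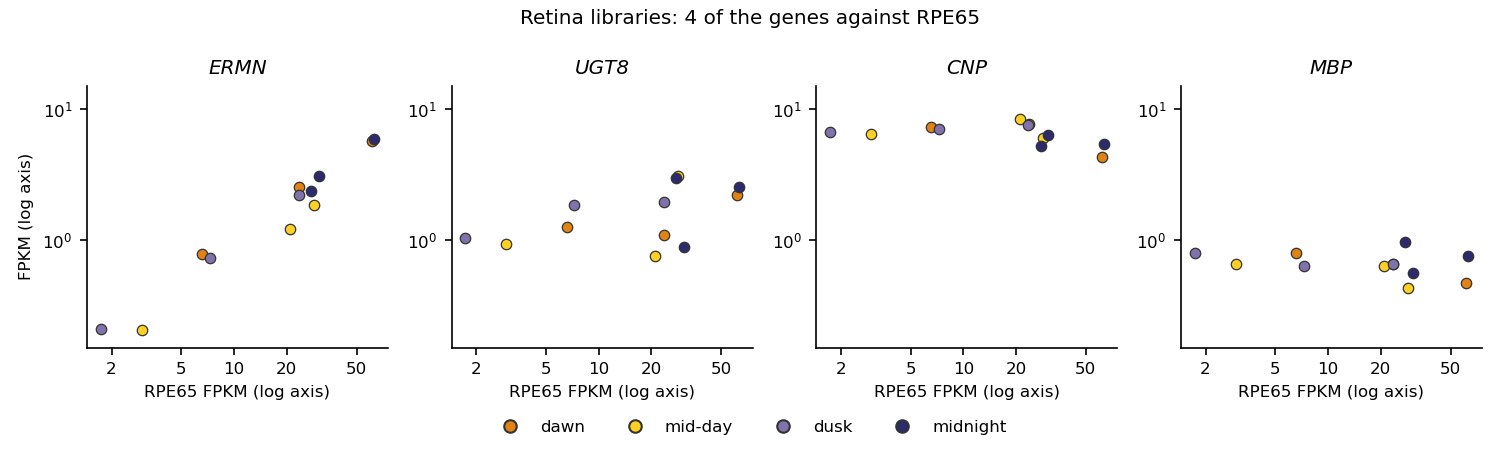
FPKM of ERMN, UGT8, CNP and MBP against FPKM of RPE65 in the 12 retina libraries, both axes log and points coloured by time of day. ERMN rises with RPE65 (r = 0.966), while UGT8, CNP and MBP have r of 0.508, -0.427 and -0.322.

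Between the tissues all 8 genes were higher in the pineal gland. In the limma fit 34.9% of all tested genes were called higher in the pineal gland than in the retina, and 8 of 8 members were. Of these, MBP, MOBP, MOG, MAG and CLDN11 passed the filter only through the pineal libraries and the pools. The calls, p-values and separation of these 5 are thus given as description and are no support for the direction. The log2 change was 3.73 ± 0.33 for MBP (adjusted p = 1.94e-09), 3.12 ± 0.43 for MOBP, 2.11 ± 0.37 for MOG, 3.09 ± 0.31 for MAG and 4.03 ± 0.13 for CLDN11 (limma adjusted p = 2.09e-16). It was 2.43 ± 0.40 for ERMN, 0.89 ± 0.31 for UGT8 (limma adjusted p = 0.0125) and 0.73 ± 0.17 for CNP (limma adjusted p = 0.000682). The median over the members was 2.76, and over all tested genes -0.17. On this log2(FPKM + 0.5) scale CLDN11 had the smallest change from the pools and the largest from the retina, where limma-voom put MOBP first. For CLDN11 every pineal library, at 5.13 FPKM or more, lay above every retina library, at 0.343 or less. MBP and MAG also separated completely, with 2.97 FPKM or more against 0.966 or less and with 1.23 or more against 0.209 or less, as did MOBP, with 0.195 or more against 0.0535 or less. MOG, CNP, UGT8 and ERMN overlapped.

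The added 0.5 understates the change of genes near 0 in the retina. On recovered reads limma-voom gave log2 changes of 4.50 for MBP, 7.44 for MOBP, 4.59 for MOG, 5.65 for MAG and 6.21 for CLDN11, with all 8 members called under the same filter. Without retina dawn 2 and mid-day 1 the calls were the same, with 1.07 for UGT8 and 0.65 for CNP. The limma model uses 1 spread per gene for both tissues, while that of MBP was 1.22 around the time means in the pineal gland and 0.19 in the retina. Whether the times of day acted differently in the 2 tissues was tested as an interaction: 0.218% of 24740 genes were called and 0 of 8 members, with limma adjusted p from 0.688 for CLDN11 to 0.880 for MBP, no member at an unadjusted p under 0.05, and 0 members by limma-voom.

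Against the control pools the retina was lower for all 8 genes, in a fit that called 27.2% of genes lower, and this comparison shares its pools with that of the pineal gland. MBP, MOBP, MOG, MAG and CLDN11 passed the filter only through the pineal libraries and the pools, so their count is no support for the direction. The limma log2 change was -6.90 ± 0.61 for MBP, -7.23 ± 0.80 for MOBP, -6.29 ± 0.69 for MOG, -6.20 ± 0.57 for MAG and -4.77 ± 0.24 for CLDN11. For CNP it was -3.55 ± 0.33, for UGT8 -4.29 ± 0.58 and for ERMN -5.29 ± 0.74 (adjusted p = 4.95e-06, the highest of the 8). All 8 were also called without dawn 2 and mid-day 1. The authors' deposited table of the retina against the control calls 49.5% of genes in either direction, and all 8 members as lower, MBP at a log2 fold change of -7.64 and MOBP at -11.54. The deposited table named for the pineal gland against the control repeats the retina values row for row and was not used.

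Other lists differed in direction from one tissue contrast to the next. Of the 25 other mature oligodendrocyte genes limma called 22 lower and 1 higher in the pineal gland than in the pools, with a median log2 change of -2.50, where 24.4% of all tested genes were called lower. Against the retina 19 of the 25 were called higher in the pineal gland and 3 lower, beside 34.9% of all tested genes called higher, but 11 of the 25 passed the filter in the retina libraries and the others entered the fit through the pineal libraries and the pools. Of 8 lineage factors 5 were called lower than in the pools (OLIG1, MYRF, NKX2-2, ZNF488 and SOX8) and 0 higher, and NKX2-2 was at 0 in every retina library. Among 9 tested genes of Schwann cells 3 were called higher and 3 lower than in the pools. Of 10 astrocyte genes 0 were called higher than in the pools and 6 lower, with a median log2 change of -0.97, against -3.14 for the 8 members. Genes of the choroid plexus (8 higher and 1 lower of 10, median 2.23) and of ependymal cells (5 higher and 0 lower of 7 tested) ran the other way against the pools. The share of all tested genes called higher in the pineal gland than in the pools was 21.9%. Against the retina, 34.9% of all tested genes were called higher in the pineal gland and 47.6% lower. Node and paranode genes (4 higher and 6 lower of 10) were near these shares. Of the central neuron genes 2 were called higher and 10 lower of 15.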

How the data were processed

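Per the submitters' processing notes, reads were aligned with STAR 2.3.0e to hg19, counted with featureCounts of Subread and compared with DESeq2. The annotation and strand setting are not given in the sources used here, so reads of overlapping or antisense genes cannot be told apart. The authors deposited FPKM per gene and library, and tables of their comparisons. Per the file headers, those tables hold log2 fold changes, p-values, a test score and a mean normalised signal per gene. The deposited FPKM values are whole multiples of 1 read in every library for 100.0% of genes above 0 in at least 2 libraries (tolerance 0.001 reads), from which read numbers and depths were recovered. For genes above 0 in few libraries such a multiple can be found for nearly any values, so this share says little about them. The 2117 genes above 0 in 1 library were set to 1 read there.

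FPKM was tested with limma 3.58.1 (R 4.3.3) on log2(FPKM + 0.5), for genes at 1 FPKM or more in at least 3 fitted libraries, with Benjamini-Hochberg adjustment over all tested genes and a threshold of 0.05; the script was tested on simulated data. A fold change on this scale understates that of low genes. Time of day was fitted within each tissue by group means, and the tissues and control pools in 1 fit of all 26 libraries. Correlations used permutation tests with 100000 resamples (Python 3.11.15, scipy 1.17.1), two-sided. Alternatives were other pseudocounts (0.1 and 1), no filter, a filter of 6 libraries, TPM and median-of-ratios scaling, limma-voom on recovered reads, a replicate block, all 24 tissue libraries together and each library left out. Retina dawn 2 and mid-day 1 were left out together as an alternative chosen after seeing the data. Same-numbered libraries were checked for pairing by the correlation of their deviations from group means, which exceeded 0.1 in 1 of 12 pineal-retina pairs, in 6 of 18 pairs of pineal times and in 2 of 18 pairs of retina times (-0.372 to 0.318), so the numbers were not used as pairs.

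The 8 genes and the lists were chosen with earlier results of these data known. Named besides the members are up to 4 genes of each list with the highest mean FPKM in the tissue, any called, and the 10 (pineal gland) or 5 (retina) genes most correlated with the mean of the tested members; some genes that this rule would name are not reported here, and TSPAN2, LPAR1, HAPLN2 by library and GNAT1 were named after their values were seen. Intervals cover counting error only.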

Additional observations from a re-analysis of the deposited data

How the results depend on the processing

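The members called did not change under the alternatives run: 0 of 8 over time in the pineal gland, 0 in the retina, 0 for the time profile by tissue, and 8 of 8 for each pair of tissues, except 7 of 8 between pineal gland and pools with a pseudocount of 0.1 or without the midnight pool. MBP, MOBP, MOG, MAG and CLDN11 passed the main filter only through the pineal libraries and the pools. Their calls in the 2 comparisons with the retina are thus no support for the direction. All genes called moved more. Over time in the pineal gland 20 genes became 43 with a replicate block, 1184 with all 24 tissue libraries and 4 to 378 with 1 library left out, the 378 without mid-day 3. In the retina 0 became 9 without the filter, 2 with the replicate block, 30 with all 24 libraries, 1 without dawn 2 and mid-day 1 together and 0 to 2 with 1 left out. For the time profile by tissue 54 became 35 with a pseudocount of 0.1, 32 with TPM scaling, 7 with limma-voom, 4 with the replicate block, 31 without retina dawn 2 and mid-day 1 and 11 to 278 with 1 left out. The replicate block changed no call of a member; the libraries share only a number, and their deviations correlated at -0.060 to 0.174 between the tissues. The pools had no block because each time has 1. Lists correlated at 0.8 or more with the member mean numbered 3, and 1 to 4 with 1 library left out, the 1 without dawn 2. TPM scaling moved the median change of all genes between retina and pools from 0.10 to -0.01, and that of the 8 members from -5.75 to -6.86, and from 2.76 to 3.82 between pineal gland and retina. The cause of these shifts was not tested. Depth limits MOBP, MOG, MAG and CLDN11 in the retina, at 0 to 38 reads.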
